A study of Mus musculus with 2 samples.

Results

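After lysolecithin injury of the mouse spinal cord, 78 of 577 sorted cells held at least 1 transcript of Gpnmb, a membrane glycoprotein of phagocytic cells (13.5% of cells, exact 95% interval 10.8 to 16.6). They are called Gpnmb cells here, and they are among 1272 cells counted in the whole study. The cells were selected on a measured value, their Gpnmb count: a Gpnmb cell was a barcode of the injured library in which 200 or more genes were detected, with at most 10% of its counts from mitochondrial genes and at least 1 Gpnmb unique molecular identifier (UMI), the tag that marks a single captured transcript. Values of Gpnmb therefore describe the choice of these cells and are no finding. They were set against 111 injured cells that held 0 Gpnmb UMIs but gave at least 0.5% of their UMIs to Spp1, the osteopontin gene, called Spp1-rich cells below. The other 388 injured cells had neither feature.

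The study profiled single cells sorted for tdTomato from spinal cord by droplet-based RNA sequencing. The mice, of C57BL/6J background, were Cx3cr1-CreER::Rosa26-tdTomato. The Cx3cr1 promoter drives the inducible recombinase, so after 4-hydroxytamoxifen the red protein stays on in cells that were expressing the fractalkine receptor gene, mainly microglia and other resident macrophages. Animals of both conditions carried both alleles and were injected at postnatal week 4 with 4-hydroxytamoxifen, in 2 doses of 1 mg, and cord was collected 4 weeks after that. One library came from uninjured cord of matching age, and the other from cord at 5 days after lysolecithin, a lipid that dissolves myelin. How many animals were pooled, and of which sex, is not stated in the labels. With 1 library per condition and cells that are not replicates, no p-value was computed. All intervals below are exact 95% intervals, and the limit given for a count of 0 is 3 counts over the total, a separate convention. Both cover counting error only, and fewer cells of a kind cannot be told apart from a loss in sorting.

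Gpnmb encodes a transmembrane glycoprotein that reaches lysosomes and phagosomes and is made by macrophages and microglia that are clearing debris. Such cells digest myelin in lysosomes, store its lipid in droplets coated by perilipin 2 (Plin2) and export cholesterol on apolipoprotein E (Apoe). Galectin 3 (Lgals3) is a sugar-binding lectin that collects on damaged lysosomes, and insulin-like growth factor 1 (Igf1) is a secreted factor that acts on oligodendrocyte-lineage cells and neurons. These 3 genes, with Gpnmb, are the markers by which the cells were labelled phagocytic.

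In the GRCm38 annotation, Gpnmb lies on the plus strand of chromosome 6 at chr6:49036546-49070929, Igf1 at chr10:87858265-87937042 and Lgals3 at chr14:47367751-47386160, both on the plus strand, and Plin2 on the minus strand at chr4:86648386-86670060. The windows of 300 bases around their RefSeq start sites (GRCm38.p6, 250 bases before and 50 after) were searched for the E-box CACGTG, the core bound by the lysosomal regulators of the MiT-TFE family, and for TGACTCA, the AP-1 motif, on both strands. They are shown because these 4 genes are the markers of the label. TGACTCA stood once in the Gpnmb window, starting at base 9 of the transcript, and CACGTG once in the Plin2 window, starting 4 bases before the transcript. Neither was found in the windows of Igf1 and Lgals3. For these genes the 250 bases before the RefSeq start, chr10:87860861-87861110 and chr14:47373610-47373859, lay inside the annotated gene. The annotated starts of Igf1 and Lgals3 given above were not searched. Over 32851 RefSeq windows of the same length, 7.15% held CACGTG and 5.20% held TGACTCA. The stretches below run 5′ to 3′ on the gene's strand, with the motif in capitals, at chr6:49036516-49036542 (plus) and chr4:86670048-86670073 (minus).
Gpnmb: caggggcaagTGACTCAtgagcacgag
Plin2: gctgggctatCACGTGgctcggaggc

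The Gpnmb cells were few but unequal. The injured library held 434 Gpnmb UMIs, of which 34 cells had 1 each, 9 cells had 2 each and 35 cells had 3 or more. The 35 cells held 88.0% of all Gpnmb UMIs, and the 17 cells with 10 or more held 295, with 31 in the highest cell. In the uninjured library 1 of 695 cells had Gpnmb UMIs, and it had 2. Gpnmb cells were deeper than most, with a median of 7748 UMIs (lowest 2091, highest 18223), beside 7118 in Spp1-rich cells (1587 to 15249) and 3820 in the other injured cells (1023 to 15361). They were 13.5% of the cells and 20.0% of the UMIs of the injured library. Their mitochondrial share was 2.29%, against 2.54% in Spp1-rich cells.

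Depth bears on who is counted as a Gpnmb cell. When every injured cell was thinned at random to 1500 UMIs, which left out 10 cells, 42 of 567 kept a Gpnmb UMI (7.41%, interval 5.39 to 9.88). Of the 35 cells with 3 or more UMIs at full depth 26 still did, and of the 34 cells with 1 UMI 10 did. At 3000 UMIs per cell 53 of 465 were Gpnmb cells (11.4%). Of the 116 Spp1-rich cells without Gpnmb at that depth, 12 held Gpnmb at full depth, so at that depth the comparison class includes cells in which the transcript was missed.

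**Figure D1:**
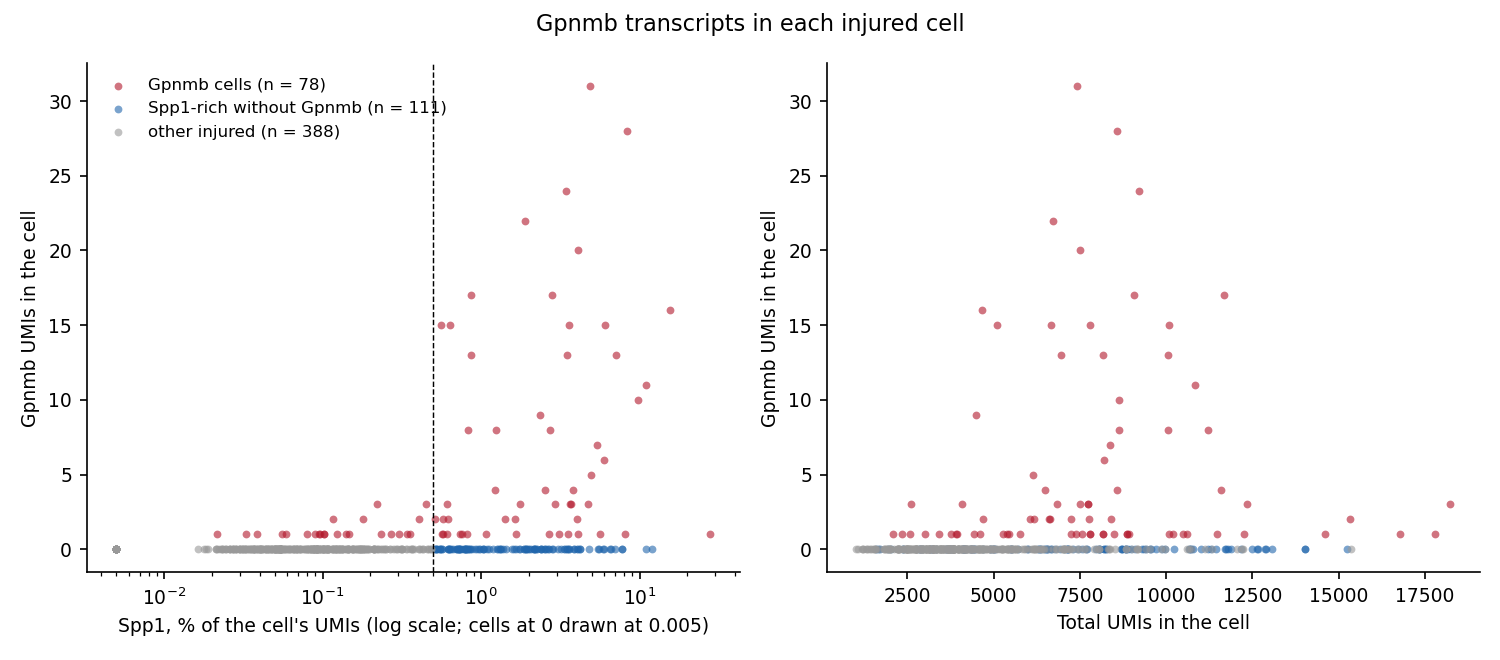
Gpnmb UMIs in each of the 577 injured cells (vertical axis) against the share of the cell's UMIs from Spp1 (left, log scale, dashed line at the 0.5% used to choose the comparison cells) and against its total UMIs (right). Red points are the 78 Gpnmb cells, blue the 111 Spp1-rich cells without Gpnmb and grey the other 388 injured cells. All but 2 of the 35 cells with 3 or more Gpnmb UMIs lie to the right of the dashed line.

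Spp1 was high in nearly all cells with 3 or more Gpnmb UMIs, but most cells high in Spp1 held no Gpnmb. Of the 165 injured cells with Spp1 at or above 0.5% of UMIs, 54 held Gpnmb and 111 did not. Spp1 reached 0.5% of UMIs in 54 of the 78 Gpnmb cells, in 33 of the 35 with 3 or more Gpnmb UMIs and in 15 of the 34 with 1. Per cell, Spp1 ranged from 0.0217% to 27.9% of UMIs in Gpnmb cells with a median of 0.971%, and the median was 3.45% in the cells with 3 or more Gpnmb UMIs and 0.323% in those with 1. Spp1-rich cells had a median of 1.44%. The 2 classes were thus not matched on Spp1.

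Free RNA in the suspension can place a transcript in a cell that does not make it. A set of 7 injured barcodes, chosen after the data were seen, held at least 3 UMIs of endothelial or oligodendrocyte precursor markers and under 0.5% of microglial marker UMIs, with a median of 3254 UMIs. Gpnmb was detected in 0 of the 7, which allows a share of up to 42.9%, and Igf1 and Lgals3 were likewise at 0. Spp1 was detected in all 7, at 1 to 4 UMIs each, and Plin2 in 4 with 1 UMI each. The injured library held 88.4 Spp1 UMIs for each Gpnmb UMI. The part of free RNA in the cells with a single Gpnmb UMI was not tested.

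The markers of the label other than Gpnmb had not been used to pick the cells. They were chosen with earlier results of these data known, so their levels describe the label and are no check of it. Levels are given as CPM, the gene's UMIs summed over a class and scaled to a class total of 1000000 UMIs. Igf1 was at 471 CPM (418 to 528) in Gpnmb cells, 309 in Spp1-rich cells, 63.2 in the other injured cells and 6.69 in uninjured cells. Lgals3 was at 758, 463, 138 and 28.7 CPM in the same order. Plin2 was at 800.5, 669, 253 and 32.5 CPM. All 3 markers were thus highest in the Gpnmb cells, but Plin2 only by 0.26 on the log2 scale over Spp1-rich cells (interval 0.08 to 0.44), against 0.61 (0.36 to 0.85) for Igf1 and 0.71 (0.51 to 0.91) for Lgals3. None of these ratios reached 2-fold. Without cells with 3 or more UMIs of G2 and M phase genes, which mark dividing cells, Igf1 was at 0.40, Lgals3 at 0.45 and Plin2 at 0.20.

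The number of Gpnmb UMIs separated the cells further. Igf1 was at 281 CPM in cells with 1 Gpnmb UMI, 436 in cells with 2 and 648 in cells with 3 or more, the last 1.07 above the Spp1-rich level on the log2 scale (0.79 to 1.35). Lgals3 was at 428, 624 and 1086 CPM, the last 1.23 above it (1.01 to 1.45). Plin2 was at 617, 987 and 921 CPM. Cells with 1 Gpnmb UMI were near the Spp1-rich cells for these 3 genes, while cells with 3 or more stood apart in Igf1 and Lgals3. The Spp1-rich cells are only part of the cells outside the Gpnmb rule. The 388 other injured cells also held no Gpnmb and had lower levels of these 3 genes. Of the 34 cells with 1 Gpnmb UMI, 19 were below the Spp1 limit used to choose the Spp1-rich cells. Continuity across the Gpnmb rule is thus not read from these levels.

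Single cells still overlapped. Per 10000 UMIs of a cell, Igf1 ran from 0 to 16.6 with a median of 4.90 in cells with 3 or more Gpnmb UMIs, and from 0 to 16.5 with a median of 1.79 in Spp1-rich cells. Lgals3 ran from 0 to 29.9 with a median of 8.23, against 0 to 125 with a median of 1.55, and 3 of the 111 Spp1-rich cells held 36.0% of that class's Lgals3 UMIs. The medians were apart while the ranges overlapped throughout.

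**Figure D2:**
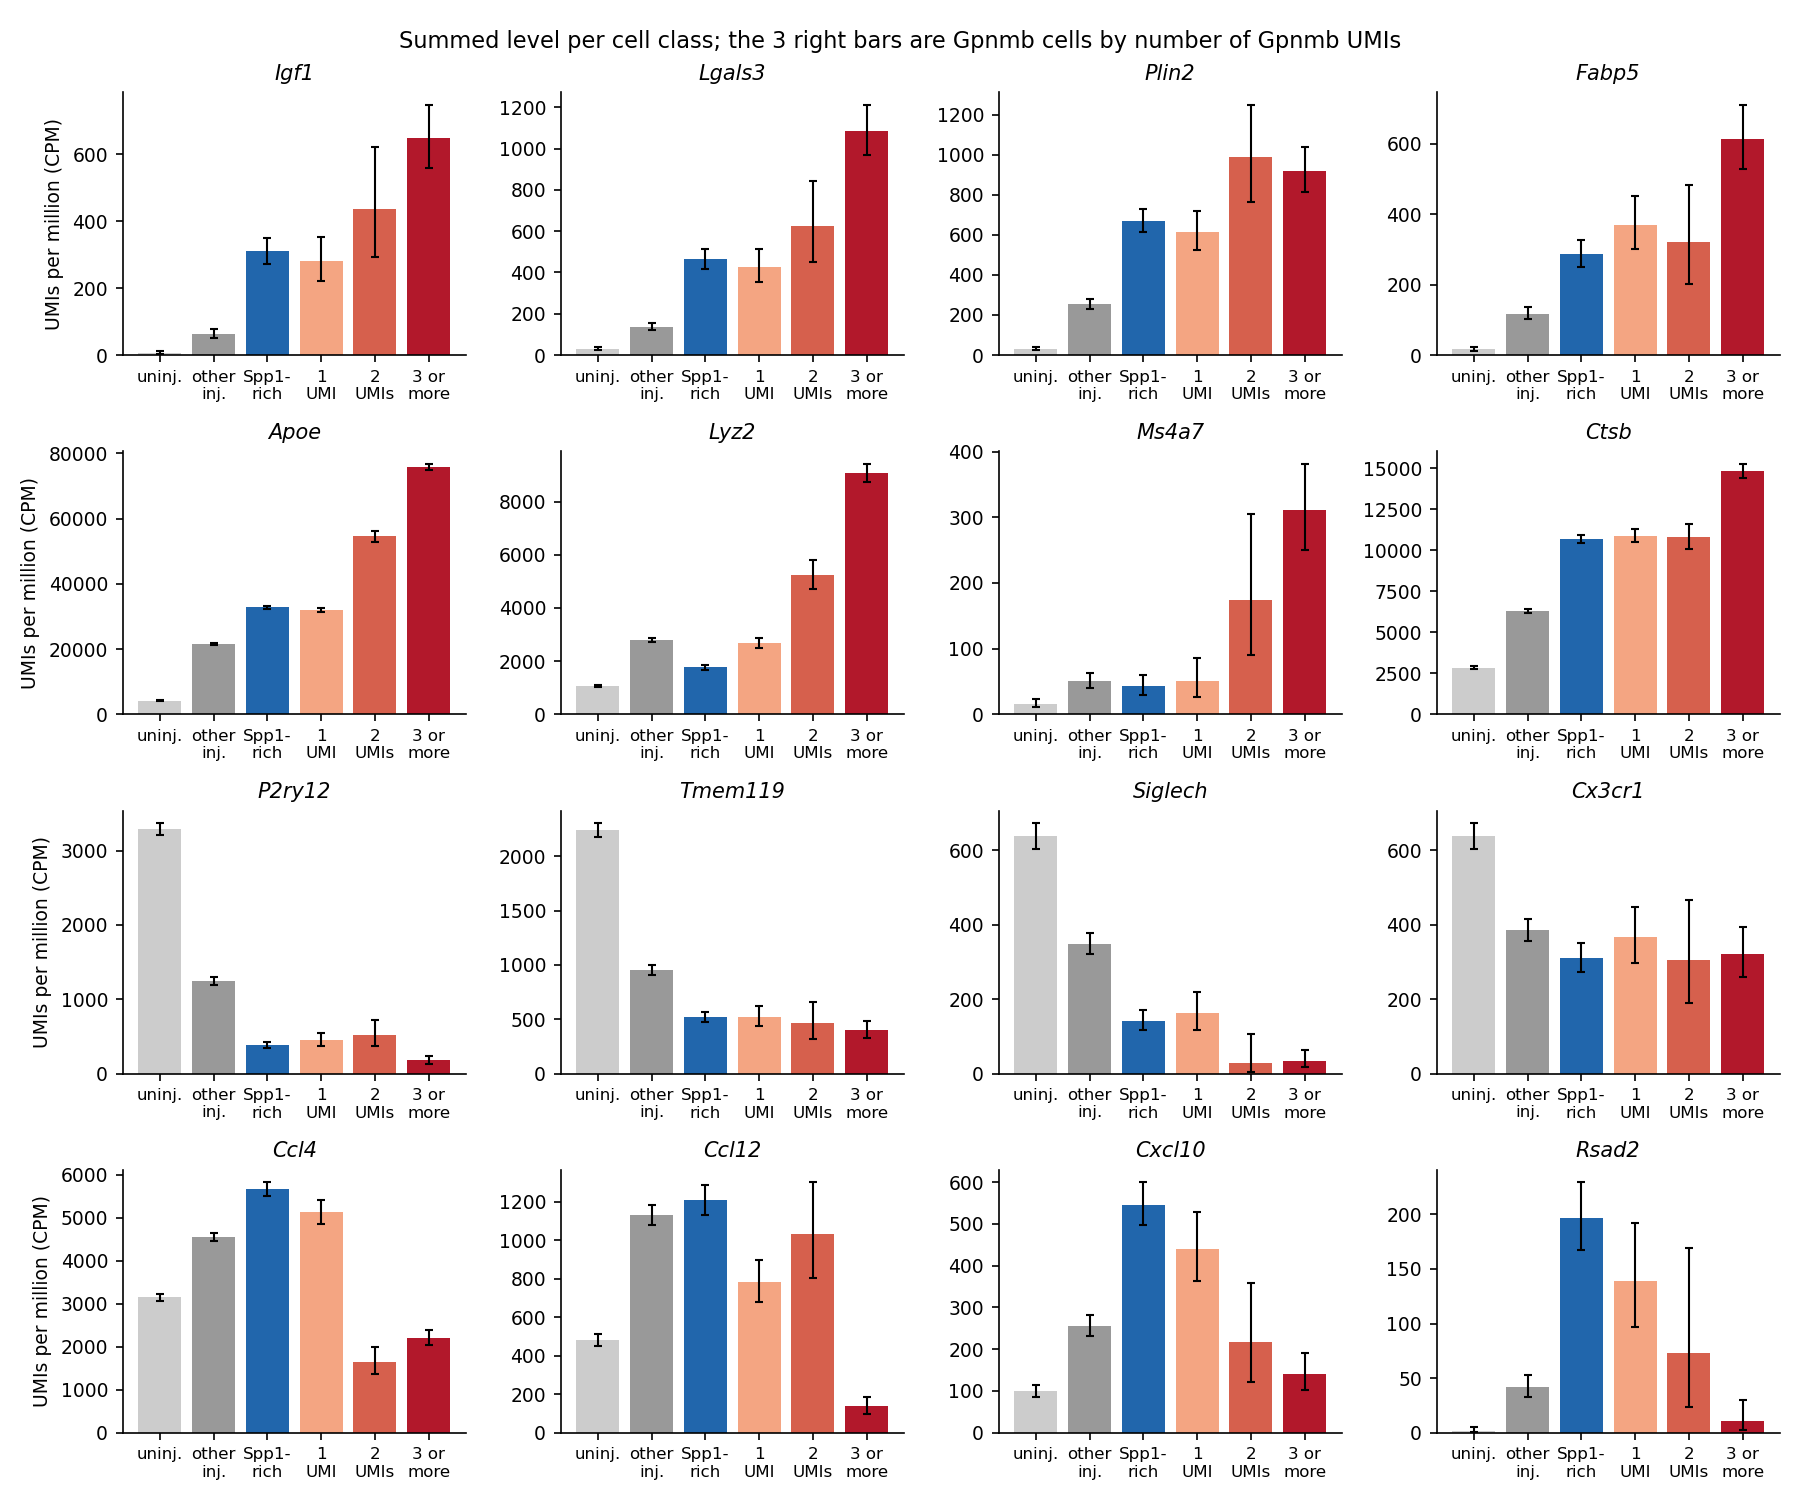
Summed level (CPM, linear axis from 0) of 16 genes in uninjured cells, other injured cells, Spp1-rich cells without Gpnmb, and Gpnmb cells with 1, 2 and 3 or more Gpnmb UMIs; bars are sums over the cells of a class and error bars exact 95% Poisson intervals. Igf1, Lgals3, Apoe, Lyz2 and Ms4a7 were highest in the cells with 3 or more Gpnmb UMIs, whereas Ccl12 (138 CPM), Cxcl10 (141 CPM) and Rsad2 (10.3 CPM) were far under the Spp1-rich level there.

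The Gpnmb cells carried the markers of microglia. All 8 genes of the microglial marker list were detected, all 78 cells held UMIs of the list, and its summed level was 12590 CPM, against 13162 CPM in Spp1-rich and 22883 CPM in uninjured cells. The list ran from 14.3 to 248 UMIs per 10000 in single Gpnmb cells. Of 8 monocyte markers, 5 were at 0, among them Ly6c2, and the list held 5 UMIs in all. Ccr2, the chemokine receptor of inflammatory monocytes, had 1 UMI. Neutrophil markers had 1 UMI in the Gpnmb cells, and T cell and erythroid markers had 0 (a count of 0 in this class allows up to 4.85 CPM).

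Markers of border-associated macrophages, the resident macrophages of the meninges and vessels, were mixed. Mrc1, Cd163 and Lyve1, which define those cells, were at 0 in Gpnmb cells and in Spp1-rich cells. The summed list of 8 was nevertheless at 262 CPM in Gpnmb cells and at 400 CPM in those with 3 or more Gpnmb UMIs, against 103 CPM in Spp1-rich cells, with a range of 0 to 33.0 per 10000 in single Gpnmb cells and 0 to 31.0 in Spp1-rich cells. Most of that was Ms4a7, a membrane protein more typical of macrophages than of resting microglia, with 115 of the 162 UMIs. The part of such cells in the results was not tested beyond leaving out cells rich in Ms4a7, given at the end.

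Set against Spp1-rich cells, the Gpnmb cells differed in few genes. Of 3045 genes with at least 50 UMIs over both classes, with Gpnmb and Spp1 left out, 10 were at least 2-fold higher (0.328%) and 33 at least 2-fold lower (1.08%), and the median log2 ratio was -0.06. For the 35 cells with 3 or more Gpnmb UMIs, 2474 genes were measured at a median of -0.15, and 15 of them passed 2-fold on the high side (0.606%) and 122 on the low side (4.93%). For the 34 cells with 1 UMI, 5 of 2480 were higher (0.202%) and 42 lower (1.69%), with a median of -0.01.

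The genes on the high side were led by macrophage genes. Ms4a7 was at 186 CPM in Gpnmb cells and 43.0 in Spp1-rich cells (log2 ratio 2.11, interval 1.56 to 2.70), and reached 310 CPM in cells with 3 or more Gpnmb UMIs. It was detected in 34 of the 78 Gpnmb cells and in 14 of the 111 Spp1-rich cells. Lyz2, which encodes the bacteria-digesting lysozyme of myeloid cells, was at 5954 against 1770 CPM (1.75, 1.66 to 1.84) and at 9066 CPM in cells with 3 or more Gpnmb UMIs. The Spp1-rich cells were also under the other injured cells for Lyz2, which were at 2797 CPM.

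Lyz2 was spread over the class more evenly than Ms4a7. Every Gpnmb cell held Lyz2 UMIs, from 4.07 to 520 per 10000 with a median of 20.7, against 0 to 125 with a median of 12.6 in Spp1-rich cells. The medians were closer than the sums, so cells with high Lyz2 weighed in the sum. Without the 3 highest cells of each class the log2 ratio of Lyz2 was 1.52. Lyz1, a near-identical copy of Lyz2 from which reads may be misassigned, was at 69.5 against 17.2 CPM. Cd5l, a secreted scavenger protein of macrophages, was at 85.7 against 22.1 CPM (1.96), with 58.5% of its UMIs in 3 Gpnmb cells. Htr2b, a serotonin receptor found on microglia, was at 67.9 against 18.4 CPM (1.88) and was detected in 23 Gpnmb cells and 12 Spp1-rich cells.

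The remaining genes at least 2-fold higher were thinly counted or rested on few cells. Colec12, a collectin scavenger receptor, was 1.29 higher on the log2 scale, Ethe1, a mitochondrial sulfur dioxygenase, 1.19, and Cd300a, an inhibitory receptor for membrane phospholipids, 1.12, each with 37 or 38 UMIs in the Gpnmb cells. Bet1, named after its value was seen, stood at the 2-fold limit. Ccl7, a monocyte-attracting chemokine, was 1.69 higher (1.28 to 2.12), but 69.5% of its UMIs were in 3 cells and 19 of the 78 cells held any. Without the 3 highest cells of each class the Ccl7 ratio was 1.15, and for the cells with 3 or more Gpnmb UMIs it was -1.30. Without the deepest 5% of injured cells it was 0.31, so no direction is read for Ccl7.

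**Figure D3:**
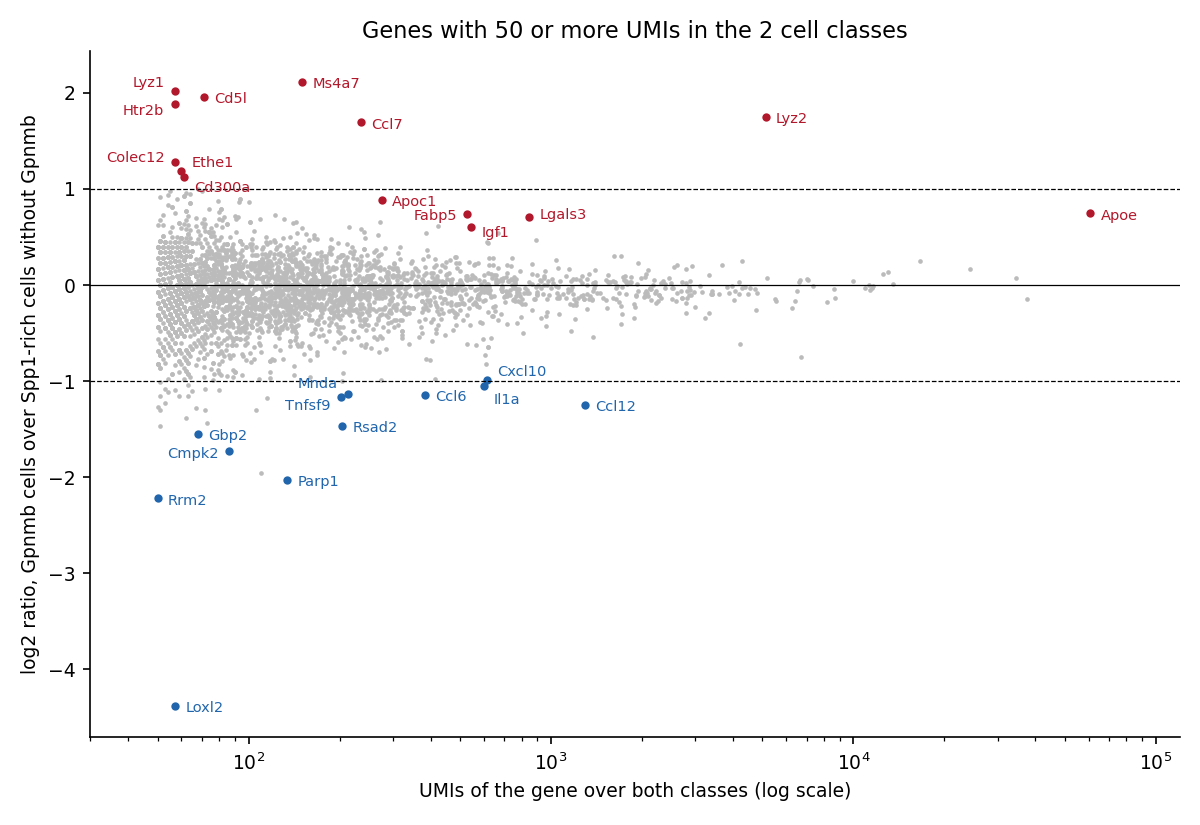
Log2 ratio of summed level in the 78 Gpnmb cells over the 111 Spp1-rich cells without Gpnmb (vertical axis) against the gene's UMIs over both classes (horizontal axis, log scale) for 3045 genes; dashed lines mark 2-fold. Named genes in red are the 14 highest and in blue the 12 lowest by the bound of the interval nearest 0. Apoe and Lyz2 stand far to the right of the other red genes, and most genes lie near the line at 0.

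Among genes of lipid handling, Apoe, Apoc1, Fabp5, Lipa and Plin2 had ratios above 0 with intervals that left out 0, all under 2-fold. Apoe was the most abundant of them, at 55032 CPM in Gpnmb cells, 32783 in Spp1-rich, 21588 in other injured and 4187 in uninjured cells. Its log2 ratio over Spp1-rich cells was 0.75 (0.72 to 0.77) in all Gpnmb cells and 1.21 (1.18 to 1.23) in those with 3 or more UMIs, where it was 75781 CPM. Single cells ranged from 38.4 to 2244 Apoe UMIs per 10000 with a median of 471, against 12.1 to 1288 with a median of 273. The high sum was thus shared by many Gpnmb cells, while the ranges overlapped.

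Fabp5, an intracellular fatty acid carrier, was at 479 against 286 CPM (0.74, 0.49 to 1.00) and at 614 CPM with 3 or more Gpnmb UMIs. Apoc1, which rides on lipoproteins, was at 260 against 141 CPM (0.88), and 3 cells held 49.1% of its UMIs. Lipa, the acid lipase that frees cholesterol from lysosomal lipid, was at 225 against 157 CPM (0.52, 0.16 to 0.87). Abca1, the exporter of cholesterol, was at 152 against 117 CPM (0.38, -0.04 to 0.81), an interval that holds 0.

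Of 17 genes on the lipid droplet and fatty acid list 7 were measured, 5 of them above a ratio of 0, and their median was 0.23 (all measured genes -0.06). None passed 2-fold in either direction. In cells with 3 or more Gpnmb UMIs all 6 measured members were above 0 and 1, Fabp5, was at least 2-fold higher, with a median of 0.46 (all genes -0.15). In cells with 1 Gpnmb UMI 1 of 5 was above 0, with a median of -0.21. The median over all Gpnmb cells was 0.07 without cells with 3 or more G2 and M phase UMIs and 0.04 without those with 3 or more Gpnmb UMIs, so the list's position rested on part of the cells. On the cholesterol efflux and lipoprotein list, 9 of 12 measured members were above 0 and the median was 0.16, again with 0 past 2-fold. Lpl, the lipoprotein lipase that releases fatty acids outside the cell, was at 704 against 770 CPM (-0.13, -0.31 to 0.05) and thus not separated from Spp1-rich cells. None of the 16 genes of cholesterol synthesis reached 50 UMIs.

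No lysosomal gene differed 2-fold, and the list lay slightly above the median of all genes. Of 35 listed hydrolases and membrane proteins 34 were measured, 22 above 0, with a median of 0.10, and in cells with 3 or more Gpnmb UMIs 26 of 34 were above 0 with a median of 0.23. None passed 2-fold in either comparison. In cells with 1 Gpnmb UMI 17 of 34 were above 0 with a median of 0.01, and without the cells with 3 or more Gpnmb UMIs the median was 0.0018. Ctsb, the protease cathepsin B, was at 12717 against 10679 CPM (0.25, 0.21 to 0.30), and at 14814 CPM with 3 or more Gpnmb UMIs (0.47, 0.42 to 0.53). Cd63, a membrane protein of late endosomes, was at 3273 against 2753 CPM (0.25), Cd68, a glycoprotein of macrophage lysosomes, at 1554 against 1397 (0.15), and Ctsd, cathepsin D, at 24759 against 23448 (0.08). Naglu, which degrades heparan sulfate, had the highest ratio of the list, 0.86 (0.27 to 1.47). The list as a whole took 8.68% of UMIs in Gpnmb cells, 8.19% in Spp1-rich cells, 6.75% in other injured cells and 6.25% in uninjured cells.

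The proton pump that acidifies lysosomes did not follow. Of 15 measured subunits of the vacuolar pump 9 were above 0, with a median of 0.01 and 0 past 2-fold. Atp6v0d2, a pump subunit of macrophages and osteoclasts, was counted 10 times in 4 Gpnmb cells, all with 3 or more Gpnmb UMIs, and 9 of the 10 were in 3 cells. It was at 0 in Spp1-rich cells (up to 2.70% of cells with a UMI allowed), in other injured cells and in uninjured cells.

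Transcription factors of the MiT-TFE family, which drive lysosomal genes and bind the Gpnmb gene in other cells, were low in all classes. Tfe3 was at 58.2 against 74.9 CPM (-0.36, with an interval that holds 0). Mitf had 14 UMIs in Gpnmb and 23 in Spp1-rich cells, Tfeb 12 and 8, and Tfec 0 and 1. The 8 measured genes of the family and its regulators had a median of -0.18, with 0 past 2-fold, and differences of this size were not resolved at this depth.

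Phagocytic receptors were mixed. Of 24 listed receptors and bridging molecules 16 were measured, with a median of 0.09, and 2 were at least 2-fold higher, Cd5l and Colec12 (2 of 16, against 0.328% of all measured genes). Msr1, a scavenger receptor for modified lipoprotein, was at 131 against 90.8 CPM (0.53, 0.06 to 1.00) and was at 4.30 CPM in uninjured cells. Axl and Mertk, receptors that recognise dying cells through bridging proteins, were at 107 against 98.2 CPM and 43.7 against 41.7 CPM. Cd36, a receptor for oxidised lipid, had 12 UMIs in Gpnmb cells and 30 in Spp1-rich cells. Among 13 measured Fc receptor and complement genes, the median was 0.03 and 0 passed 2-fold. C5ar1, the receptor for the complement fragment C5a, was lower at 456 against 599 CPM (-0.39, -0.61 to -0.18).

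All 5 galectins were measured, with a median of 0.28 and of 0.52 in cells with 3 or more Gpnmb UMIs. Lgals3 led, followed by Lgals1, another sugar-binding lectin, at 506 against 372 CPM (0.44, 0.21 to 0.68), and Lgals3bp, a secreted glycoprotein that binds galectin 3, at 500 against 411 CPM (0.28, 0.05 to 0.51). Lgals8 was at 50.1 against 54.0 CPM. Cd44, a receptor for osteopontin and hyaluronan, had 26 and 28 UMIs in the 2 classes. Fn1, the matrix protein fibronectin, was lower in Gpnmb cells at 197 against 338 CPM (-0.77, -1.09 to -0.46), whereas Adam8, a surface protease, was higher at 59.8 against 30.7 CPM (0.96, 0.19 to 1.76).

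Damage-associated microglia genes, which microglia switch on near plaques and damaged myelin, lay slightly above the median of all genes. Of 25 listed genes 23 were measured, 15 above 0, with a median of 0.08 (all measured genes -0.06). None of the 23 was 2-fold higher, and 1, the chemokine Ccl6, was 2-fold lower. The list as a whole, which includes the abundant Apoe, took 13.5% of UMIs in Gpnmb cells and 10.8% in Spp1-rich cells. In cells with 3 or more Gpnmb UMIs it took 16.2%. With 3 or more Gpnmb UMIs the median was 0.11, Apoe, Lgals3, Fabp5 and Igf1 passed 2-fold on the high side (4 genes) and 1 gene on the low side. Trem2, the lipid-sensing receptor, was at 2070 against 1850 CPM (0.16, 0.05 to 0.27). Cst7, the protease inhibitor cystatin F, was at 508 against 570 CPM (-0.17, -0.38 to 0.04), and Ch25h, which makes 25-hydroxycholesterol, at 485 against 613 CPM (-0.34, -0.55 to -0.13).

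Homeostatic microglial genes were low in both classes, and several, though not Cx3cr1, were lowest where Gpnmb was high. P2ry12, the nucleotide receptor of resting microglia, was at 3294 CPM in uninjured, 1251 in other injured, 378 in Spp1-rich and 332 in Gpnmb cells, and at 179 CPM in cells with 3 or more Gpnmb UMIs (-1.08, -1.53 to -0.65). Siglech, a sialic acid receptor, was at 141 CPM in Spp1-rich cells, 162 in cells with 1 Gpnmb UMI and 34.5 in cells with 3 or more (-2.03, -3.13 to -1.10). Tmem119, a microglial surface protein, was at 518 CPM in Spp1-rich cells and 400 CPM with 3 or more Gpnmb UMIs (-0.37, -0.68 to -0.07), and Cx3cr1 at 309 and 321 CPM. Csf1r, the receptor for the survival factor of microglia, was at 733 and 400 CPM (-0.87, -1.17 to -0.58). Over the 20 measured genes of the list, 2 were at least 2-fold lower with 3 or more Gpnmb UMIs and the median was -0.43, against 0 and -0.14 for all Gpnmb cells.

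Chemokines and inflammatory cytokines were mostly on the low side. Their median was -0.48 over 18 measured genes, of which 3 passed 2-fold on the low side (1.08% of all genes did) and 1 on the high side (0.328%). With 3 or more Gpnmb UMIs the median was -0.67, and 7 of 18 passed 2-fold on the low side (4.93%) and 2 on the high side (0.606%). Ccl12, a monocyte-attracting chemokine, was at 508 CPM in Gpnmb and 1207 in Spp1-rich cells (-1.25, -1.44 to -1.06), and at 138 CPM with 3 or more Gpnmb UMIs (-3.13, -3.62 to -2.67). Per 10000 UMIs it ran from 0 to 8.68 in those 35 cells, with a median of 0.993, and from 0 to 226 in Spp1-rich cells, with a median of 2.00. The highest Spp1-rich cells were thus far above any of the 35.

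Ccl4 and Ccl3, inflammatory chemokines, gave a similar picture. Ccl4 was at 3377 against 5662 CPM (-0.75, -0.82 to -0.67) and at 2210 with 3 or more Gpnmb UMIs. Ccl3 was at 2270 against 3462 CPM and at 1341. Il1a, the alarm cytokine interleukin 1 alpha, was at 260 against 538 CPM (-1.05, -1.32 to -0.78), and Ccl6 at 158 against 350 CPM (-1.14). Cxcl2, a neutrophil-attracting chemokine, was at 3635 against 4068 CPM (-0.16, -0.24 to -0.08), and Il1b at 349 against 460 CPM (-0.40). Genes induced by tissue digestion were also lower, with a median of -0.29 over 23 measured and 0 past 2-fold, and their part in the chemokine values was not tested.

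Interferon-response genes were lower in sum, and their UMIs sat in few cells of both classes. Of 18 measured, 3 were at least 2-fold lower, with a median of -0.54, and with 3 or more Gpnmb UMIs 12 of 18 were (4.93% of all genes), with a median of -1.27. Rsad2, the antiviral protein viperin, had 44 UMIs in 10 of 78 Gpnmb cells, 84.1% of them in 3 cells, and 160 UMIs in 16 of 111 Spp1-rich cells (-1.46, -1.98 to -0.98). In the 35 cells with 3 or more Gpnmb UMIs it had 3 UMIs. Without the 3 highest cells of each class the ratio of Rsad2 was -3.002, from 7 UMIs against 74. For the interferon-induced genes Cmpk2, Ifit2 and Usp18 the ratios were then -2.06, -2.07 and -1.71. These rested on 6 against 33, 9 against 50 and 23 against 102 UMIs. With so few UMIs left, no larger difference is read from these ratios. Cxcl10, an interferon-induced chemokine, was at 275 against 546 CPM (-0.99, -1.25 to -0.73) and at 141 with 3 or more Gpnmb UMIs. The list took 0.372% of UMIs in Gpnmb cells and 0.492% in Spp1-rich cells, but the median cell gave 0.213% and 0.236% and the upper quartile was 0.467% and 0.489%. The median and the upper quartile of the list's share thus differed less than its sum.

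Antigen-presenting genes and proliferation genes were sparse. Of 20 S phase genes 7 were measured, all with ratios below 0, and their median was -0.60. Of 21 G2 and M phase genes 5 were measured, all below 0, with a median of -0.76. In each list 1 gene was at least 2-fold lower, against 1.08% of all measured genes. Both medians were under those of the interferon and cytokine lists, over fewer genes. Cd74, the class II invariant chain, was at 186 against 367 CPM (-0.98, -1.30 to -0.67), and H2-Ab1, a class II beta chain, had 14 and 48 UMIs (-1.38, -2.35 to -0.50). Cells with at least 3 UMIs of the G2 and M phase list were 16 of 78 Gpnmb cells (20.5%), 8 of the 35 with 3 or more Gpnmb UMIs (22.9%) and 25 of 111 Spp1-rich cells (22.5%), against 6.44% of the other injured cells. That count favours deeper cells, and the other injured cells were shallower. As a share of UMIs the list gave 0.0272% in Gpnmb cells, 0.0176% in those with 3 or more Gpnmb UMIs, 0.0557% in Spp1-rich cells and 0.0343% in the other injured cells. The order thus changed with the measure, and none is read for Gpnmb cells against the other injured cells. Top2a, a topoisomerase of dividing cells, had 12 and 39 UMIs (-1.30, -2.37 to -0.34), with 83.3% of the 12 in 3 cells. Loxl2 and Parp1, the latter a DNA repair enzyme, were the lowest named genes by the interval bound nearest 0, with ratios of -4.38 and -2.03. The lowest S phase gene was under Parp1 in ratio, at -2.22. Of the Spp1-rich UMIs of Loxl2 and Parp1, 96.4% and 82.3% came from 3 cells, so these are values of single cells. Without the 3 highest cells of each class Parp1 was at 0.04.

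Energy genes did not separate the classes. The medians were 0.05 over 15 measured genes of glycolysis and hypoxia and -0.03 over 17 of oxidative phosphorylation, with 0 past 2-fold in each. Bnip3, a mitophagy receptor induced by low oxygen, was at 129 against 85.9 CPM (0.59, 0.11 to 1.07). Hmox1, the enzyme that degrades haem, was at 251 against 358 CPM (-0.52, -0.81 to -0.23). The iron and antioxidant list had a median of -0.08 over 10 measured genes.

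**Figure D4:**
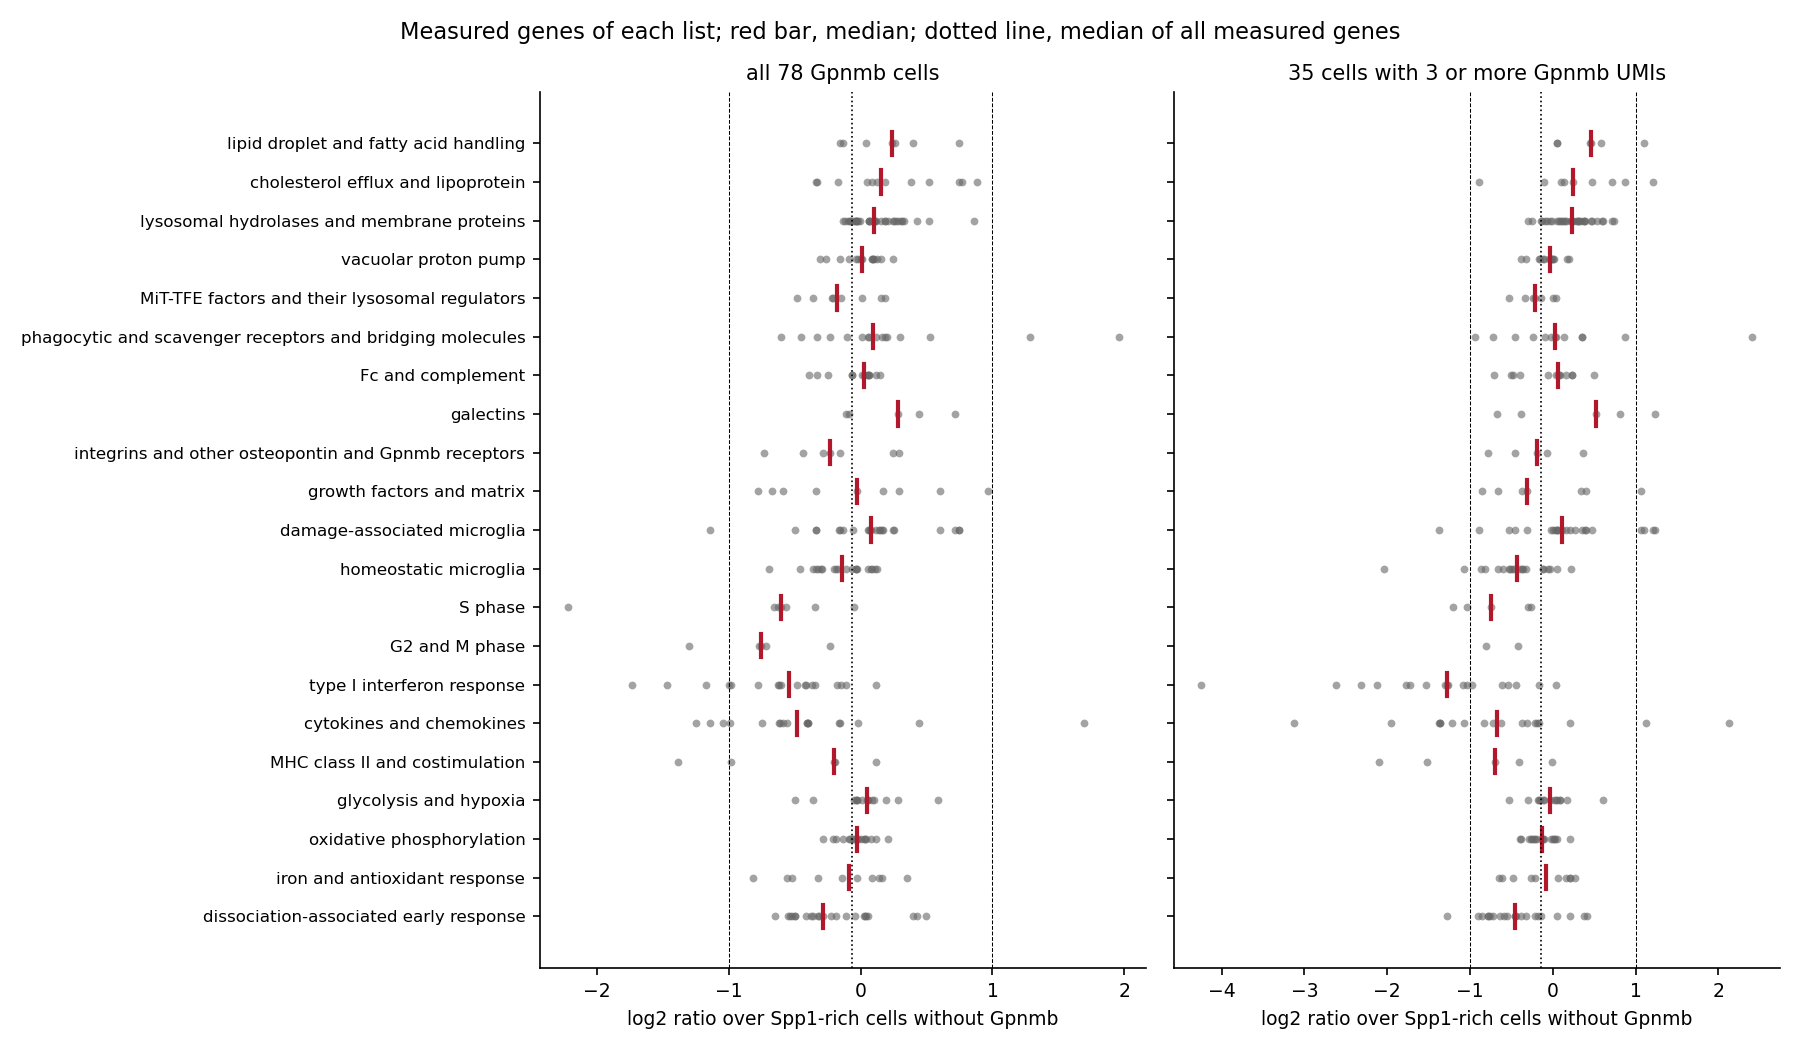
Log2 ratio over Spp1-rich cells without Gpnmb of the measured genes of each list (points; red bars, medians) for all 78 Gpnmb cells (left) and the 35 with 3 or more Gpnmb UMIs (right); the dotted line is the median of all measured genes and dashed lines mark 2-fold. The interferon list (medians -0.54 and -1.27) and the cytokine list (-0.48 and -0.67) lie left of the dotted line, and the lipid droplet list (0.23 and 0.46) lies right of it. In the left panel the S phase list (-0.60) and the G2 and M phase list (-0.76) lie furthest left.

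Igf1, Lgals3 and Ms4a7 were also found in more Gpnmb cells than Spp1-rich cells at equal depth. With every cell thinned to 1500 UMIs (all 78 Gpnmb and 111 Spp1-rich cells kept, 91 uninjured and 10 other injured cells left out), 44.9% of Gpnmb cells held Igf1 (interval 33.6 to 56.6) against 27.0% of Spp1-rich cells (19.0 to 36.3). The shares without thinning were 80.8% and 64.0%. Lgals3 was held by 62.8% (51.1 to 73.5) against 33.3% (24.7 to 42.9), and by 87.2% and 59.5% without thinning. Ms4a7 was held by 21.8% (13.2 to 32.6) against 3.60% (0.990 to 8.97), and by 43.6% and 12.6% without thinning. The 2 Igf1 intervals overlapped, and those of Lgals3 and Ms4a7 did not. In the second draw Igf1 was held by 52.6% (40.9 to 64.0) against 24.3% (16.7 to 33.4) and Lgals3 by 52.6% (40.9 to 64.0) against 31.5% (23.0 to 41.0), so that Igf1 was then apart and Lgals3 just overlapped. For Plin2 the intervals overlapped widely, 56.4% (44.7 to 67.6) against 50.5% (40.8 to 60.1). In thinned uninjured cells, at the same depth, Igf1 was held by 0.497%, Lgals3 by 1.66% and Plin2 by 3.81%.

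Few genes kept enough UMIs at this depth for a ratio of summed levels. Of the 23 genes named by the rule that were past 2-fold at full depth 4 did, and all 4 kept their direction. Lyz2 was at 1.85 and Ccl12 at -1.68, while Ccl6 at -0.78 and Il1a at -0.69 were no longer past 2-fold. P2ry12, lower in Gpnmb cells at full depth, was at 0.16, so no direction is read for it over all Gpnmb cells.

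The cells with 3 or more Gpnmb UMIs were at the far end of these shares. Igf1 was held by 57.1% of them (39.4 to 73.7), Lgals3 by 77.1% (59.9 to 89.6) and Ms4a7 by 34.3% (19.1 to 52.2). Siglech was held by 5.71% (0.697 to 19.2), against 17.1% of Spp1-rich cells and 59.9% of uninjured cells. In the cells with 1 Gpnmb UMI the share with Igf1 was 29.4% (15.1 to 47.5) and that with Lgals3 was 52.9% (35.1 to 70.2). In a second random draw at the same depth these were 41.2% and 29.4%, so neither is placed against the Spp1-rich share.

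**Figure D5:**
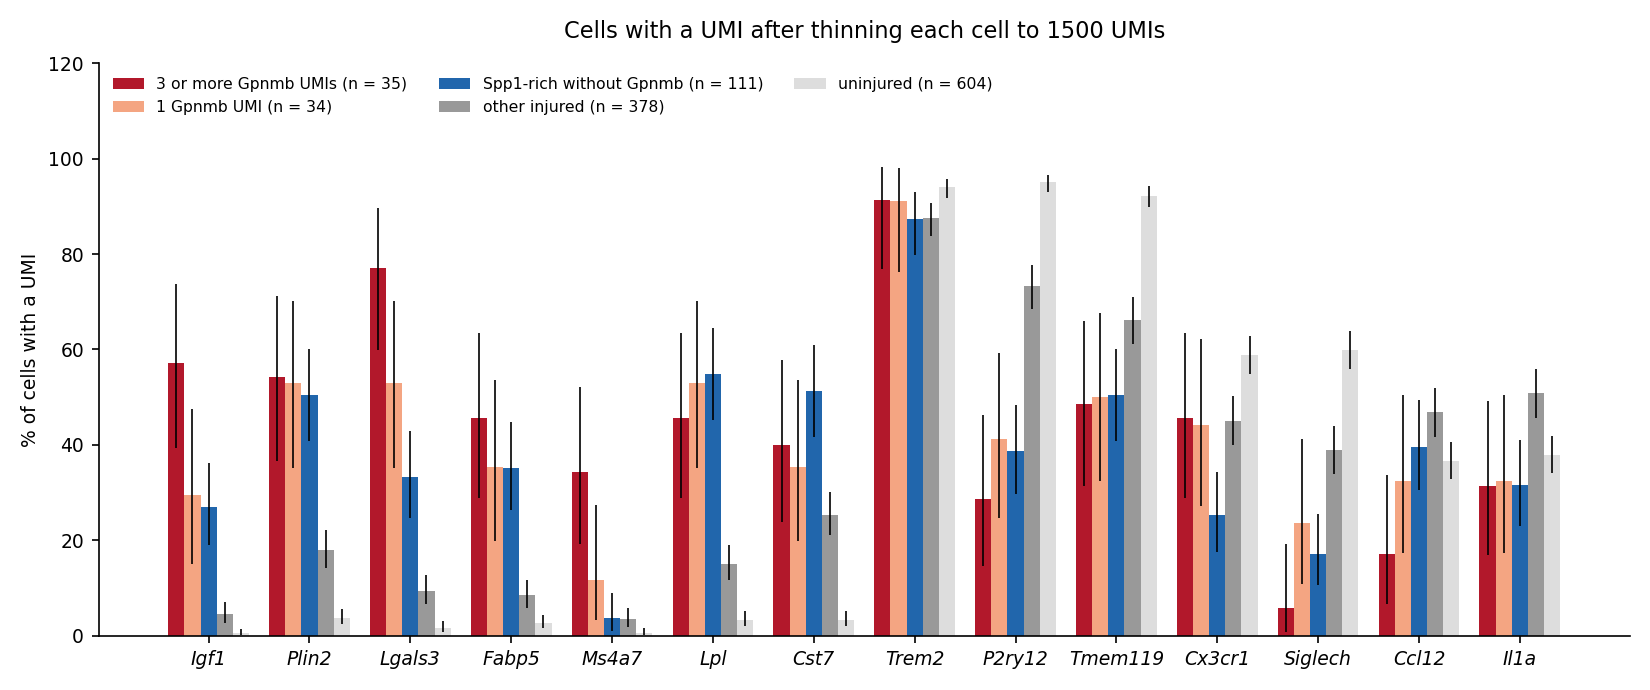
Percent of cells with a UMI of each gene (vertical axis, exact 95% intervals) after thinning every cell to 1500 UMIs, in cells with 3 or more Gpnmb UMIs, cells with 1, Spp1-rich cells without Gpnmb, other injured cells and uninjured cells. Lgals3 and Ms4a7 show the cells with 3 or more Gpnmb UMIs above the Spp1-rich cells with intervals that do not overlap, whereas Plin2, Lpl and Trem2 overlap between these classes.

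The differences were also measured in cells of like Spp1 content. With both classes limited to cells at 1 to 6% Spp1, 31 Gpnmb cells and 61 Spp1-rich cells remained, with 31940 and 26288 CPM of Spp1. The log2 ratios were then 0.90 for Igf1, 1.37 for Lgals3, 0.54 for Plin2, 0.72 for Apoe, 1.27 for Lyz2 and -1.21 for Ccl12. None of these 6 turned direction. Lgals3, Plin2 and Igf1 were larger than over all cells, and Apoe, Lyz2 and Ccl12 were smaller in size. The count of genes at least 2-fold lower came to 50 and that of genes higher to 13, of 1879 measured. Of the 31 Gpnmb cells 21 held 3 or more Gpnmb UMIs, against 35 of all 78. For these 21 the ratios were 1.03 for Igf1, 1.68 for Lgals3, 0.66 for Plin2, 0.98 for Apoe, 1.56 for Lyz2 and -3.07 for Ccl12. Over all 35 they were 1.07, 1.23, 0.46, 1.21, 2.36 and -3.13 in the same order.

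Injured cells came from animals of both sexes, which splits the library. Xist, the X-inactivation transcript of females, was counted without Y-linked UMIs in 36 Gpnmb and 48 Spp1-rich cells, and Y-linked genes without Xist in 16 and 32. Among the cells with 3 or more Gpnmb UMIs the numbers were 13 and 12, and among those with 1 UMI 18 and 3. Over all injured cells they were 213 and 147, and in uninjured cells 6 and 235. A difference between injured and uninjured cells thus cannot be told apart from one between the sexes. Within the Xist cells the log2 ratios were 1.22 for Lgals3, 1.56 for Lyz2, 0.69 for Apoe and -1.11 for Ccl12, and within the Y cells 1.16, 2.60, 1.03 and -1.62. These genes kept their direction in both sets. Igf1 did not hold its size, with 1.41 in Y cells and 0.06 in Xist cells, a difference that was not tested. Plin2 was at 0.25 and 0.38.

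Cells rich in Ms4a7 bore on part of the Lyz2 and Apoe values. Without the cells that held 4 or more Ms4a7 UMIs (9 Gpnmb cells and 2 Spp1-rich cells, a limit set after the data were seen), the ratio of Lyz2 was 0.98, and Apoe was at 0.50, Lgals3 at 1.03, Igf1 at 0.73 and Plin2 at 0.36. Without the 35 cells with 3 or more Gpnmb UMIs, the ratios were 0.02 for Igf1, 0.02 for Lgals3, 0.05 for Plin2, 0.16 for Apoe, 0.86 for Lyz2 and -0.53 for Ccl12. Over the 43 cells with 1 or 2 Gpnmb UMIs, Igf1, Lgals3 and Plin2 were thus near the Spp1-rich level in sum, while Lyz2 was above it. The 43 cells were not alike, since the 9 cells with 2 UMIs had the higher levels of these 3 genes given above and the 34 cells with 1 UMI the lower ones.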

How the data were processed

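Single-cell messenger RNA was counted in 1 uninjured and 1 injured library. The authors deposited raw UMI counts, whole numbers for 27998 genes in each barcode. The submitters' processing notes name the build GRCm38.p5 (mm10) and the tools Cell Ranger 2.0.1, STAR and Seurat 2.1.0, and which step each tool did is not given in the sources used here. Doublets had been gated out by scatter during the sort, per the labels' protocols, and no doublet caller was run. The filters were 200 detected genes and a mitochondrial share of 10% of UMIs, which kept 695 of 705 uninjured (2093084 UMIs) and 577 of 580 injured (3095511 UMIs). The libraries share 0 barcodes. The tdTomato transgene and 1 listed gene were not analysed here.

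UMIs were summed per class and scaled to CPM. Genes needed 50 UMIs over both classes to be measured, and a size of at least 2-fold was counted. Intervals, at 95%, are Clopper-Pearson for ratios and shares and exact Poisson for CPM. Where a class had 0 UMIs, a floor of 3 counts was used. Thinning drew UMIs without replacement. The members, the 23 gene lists and the 18 marker lists were chosen with earlier results of these data known, and some genes stand in several lists.

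Named genes were the 14 highest and 12 lowest by the interval bound nearest 0 (without Gpnmb, Spp1, Rik and numbered Gm genes, and genes of haemoglobin, mitochondria and ribosomal proteins), up to 4 per list with the largest ratio, and 31 fixed genes. Genes outside this rule that are given with values (Bet1, Abca1, Ccl3, Cxcl2, Il1b and Csf1r) were chosen after their values were seen. Scripts were tested on simulated data. Positions are from GENCODE M21 (GRCm38) and motif windows from RefSeq (GRCm38.p6). Tools were numpy 2.4.6, scipy 1.17.1, pandas 2.3.3, R 4.3.3, edgeR 4.0.16 and DESeq2 1.42.0, the last 2 for scaling factors alone.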

Additional observations from a re-analysis of the deposited data

How the results depend on the processing

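The counts of 10 genes at least 2-fold higher and 33 lower in Gpnmb cells were recomputed under 16 planned and 5 added alternatives, the added ones chosen after seeing the data. The main counts were of 3045 measured genes (0.328% and 1.08%), and the number measured differed between alternatives. With no UMI minimum 1591 were higher and 1585 lower of 12167, and with a minimum of 100 UMIs 3 and 10 of 1786. With every cell thinned to 1500 UMIs they were 4 and 13 of 793, which were larger shares (0.504% and 1.64%) than the main ones. With classes set in cells thinned to 3000 UMIs 5 of 1358 were higher, and with the mean of per-cell CPM 16 of 3045. Counting only Gpnmb cells with 2 or more Gpnmb UMIs gave 19 and 84 of 2594. Those with 3 or more gave 122 lower of 2474, and leaving out the latter gave 6 higher of 2606. Gpnmb cells with Spp1 at or above 0.5% gave 54 lower of 2790. All injured cells without Gpnmb as comparison gave 46 and 260 of 5108, and cells with Y-linked UMIs alone 56 lower of 1044. With both classes at 1 to 6% Spp1, 50 of 1879 were lower, and 83 of 1707 for Gpnmb cells with 3 or more UMIs. The share of cells with Gpnmb was 7.41% at 1500 UMIs and 6.88% in a second draw. Ccl7 turned to -0.14 with classes set at 3000 UMIs. TMM and DESeq2 factors moved all ratios by 0.06 on the log2 scale. In the other alternatives the counts were within 1.5 times. No paired analysis was possible because each condition had 1 library, and for the same reason no replicate could be left out. Depth limits genes under 50 UMIs, among them Mitf, Tfeb, Tfec and cholesterol synthesis genes.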
